A study of Mus musculus with 6 samples.

Results

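The transcripts described here code for the machinery that stores neurotransmitter in synaptic vesicles and releases it, and their levels were read in the ACC (anterior cingulate cortex) of adolescent mice. The members were 31 genes named in a list, and all 31 were found once each in a table of 14250 rows. By role they were 6 genes of vesicle fusion, 8 of calcium sensing and its clamps, 7 of the vesicle surface, 2 of glutamate loading, 6 of the active zone and 2 neurexins. All 31 passed the filter on low counts, and the least abundant had 2669 counts over the 6 libraries.

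The 6 mice were C57BL/6. One group of 3 received LPS (lipopolysaccharide, an endotoxin of bacterial cell walls) at 50 µg per kg into the peritoneum on postnatal day 14, and the other group of 3 received saline free of pyrogen on the same day. ACC was dissected by hand on postnatal day 45 after perfusion with ice-cold buffer, and each library held polyadenylated RNA of 1 mouse. Neither sex nor litter was given in the sources used here. The study asks about early inflammation, loss of dendritic spines to microglia and later depression-like behaviour, and the comparison here is whether transcripts of the presynaptic side differed a month after the injection. In a piece of tissue, fewer cells of a type and less RNA per cell cannot be told apart.

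A synaptic vesicle fuses when the vesicle SNARE synaptobrevin (VAMP) zippers with the plasma membrane SNAREs syntaxin and SNAP-25. Synaptotagmins bind the calcium that enters with an action potential and trigger this last step, while complexins hold the assembled complex ready. Large active zone scaffolds place the vesicle beside the calcium channels, and neurexins join the release site to receptors across the cleft. Most of a neuron's transcripts lie in and near its cell body, although axons and terminals also carry some.

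RefSeq promoters (250 bases before to 50 after a transcript's start, GRCm38.p6) were at hand for 24 of the 31 genes, in 34 windows. Their median GC content was 60.3%, against 52.7% over all 32851 windows. The GC box GGGCGG, read on both strands, lay in 21 of the 34 windows (61.8%) and in 35.7% of all windows. TTCAGCACC, the left arm of the RE1 element that the repressor REST binds, lay in the windows of Syn1 and Unc13a and in 0.371% of all windows. The right arm GGACAGCGC lay in that of Unc13a and in 0.405% of all windows, and the cAMP response element TGACGTCA lay in those of Napa and Syn1 and in 1.79% of all windows. The Egr site GCGTGGGCG lay in that of Unc13a, where it overlaps a GC box, and in 0.612% of all windows. These are matches of letters, not sites shown to be bound. The sequences printed are the 2 windows with the left RE1 arm and that of Vamp1, the member with the most negative change. Unc13a is also the member with every LPS value above every saline value in scaled counts. Capitals mark matches to these motifs on either strand.
Syn1 promoter, chrX:20920869-20921168, minus strand: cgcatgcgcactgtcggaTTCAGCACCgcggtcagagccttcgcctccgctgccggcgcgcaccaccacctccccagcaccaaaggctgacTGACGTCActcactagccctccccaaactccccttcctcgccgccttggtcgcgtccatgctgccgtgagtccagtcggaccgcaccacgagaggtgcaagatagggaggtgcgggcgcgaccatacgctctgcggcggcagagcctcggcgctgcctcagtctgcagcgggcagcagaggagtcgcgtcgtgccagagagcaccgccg
Unc13a promoter, chr8:71671708-71672007, minus strand: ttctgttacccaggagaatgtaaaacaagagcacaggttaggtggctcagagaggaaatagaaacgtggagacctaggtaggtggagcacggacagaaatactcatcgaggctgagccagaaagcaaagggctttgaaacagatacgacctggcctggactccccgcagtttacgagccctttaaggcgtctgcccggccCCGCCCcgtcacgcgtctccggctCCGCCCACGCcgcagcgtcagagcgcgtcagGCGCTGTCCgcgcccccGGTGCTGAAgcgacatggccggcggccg
Vamp1 promoter, chr6:125215331-125215630, plus strand: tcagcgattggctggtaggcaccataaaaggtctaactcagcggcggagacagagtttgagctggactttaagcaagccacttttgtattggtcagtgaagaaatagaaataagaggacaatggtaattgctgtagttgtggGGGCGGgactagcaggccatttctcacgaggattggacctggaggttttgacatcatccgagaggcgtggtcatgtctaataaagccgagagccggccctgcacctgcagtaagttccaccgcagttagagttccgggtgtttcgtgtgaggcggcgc

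The windows differ in which motifs they carry. In Syn1 the left RE1 arm begins 232 bases before the start and the cAMP response element 159 bases before it. In Unc13a both RE1 arms lie after the start, on the strand opposite to the gene. In Vamp1 only the GC box was found.

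None of the 31 genes differed between the groups by edgeR after adjustment over all rows (0 higher, 0 lower), where 0.288% of all rows were called. DESeq2 and limma-voom also called 0 of 31, with 0.983% and 0.239% of all rows called. At an unadjusted edgeR p under 0.05 there were 2 members, Syt4 and Vamp1, both with lower LPS means, and 7.17% of all rows passed that mark (3.54% with lower LPS means). In 3 members the groups did not overlap in scaled counts (Unc13a with higher, Snap25 and Syt4 with lower LPS values). This was 9.68% of the list, beside 13.7% of all rows (6.84% in each direction). Log2 changes, LPS relative to saline, were positive in 15 members and negative in 16, with a median of -0.00, beside 0.00 over all rows.

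The data also bound how large a difference could have gone unseen. The 95% interval of the log2 change stayed within 0.5 in either direction in 30 of the 31 genes, against 71.7% of all rows, and within 1.2-fold in 24 members, against 35.7% of all rows. The exception to the wider mark was Syt2. The members were mostly abundant, and the median SE of their log2 changes was 0.0621, against 0.101 over all rows. Library totals ran from 36168687 to 41270737 counts.

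**Figure D1:**
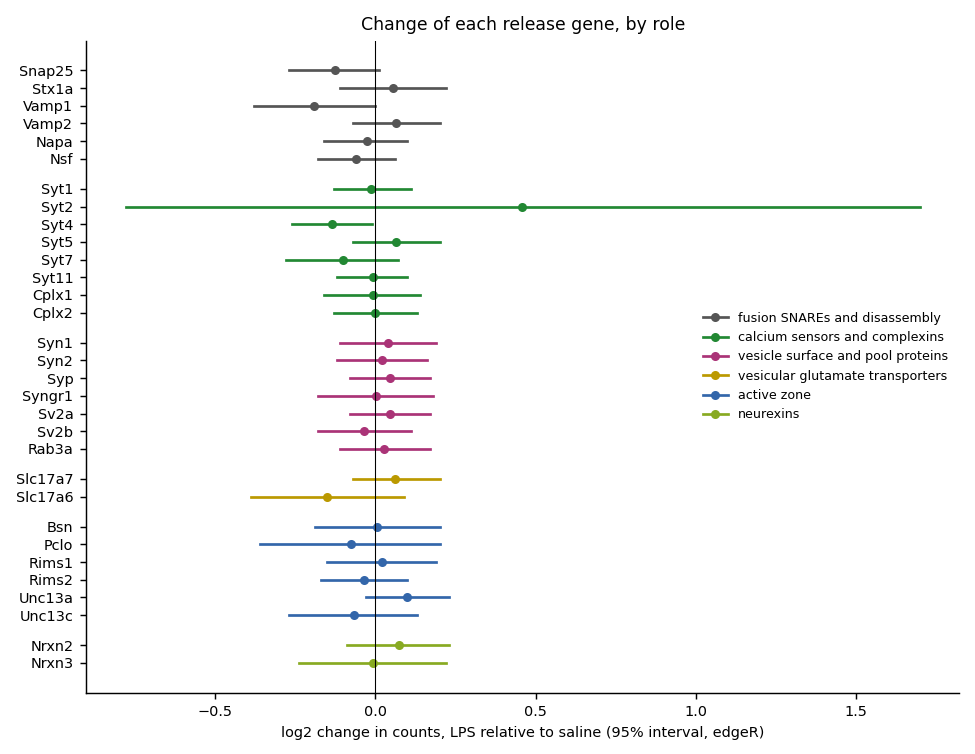
Log2 change in counts (LPS relative to saline, horizontal axis) of the 31 genes with 95% intervals from edgeR, coloured by role. Apart from Syt2 each interval lies within 0.5 of 0, and the points fall on both sides of 0 in each role.

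Levels per transcript length were read from the authors' FPKM (fragments per kilobase of transcript, scaled to library size) and spanned more than 2 orders of magnitude. Snap25 was the most abundant member at 975 to 1143 FPKM over the 6 libraries, above 99.9% of all rows. Vamp2 followed at 529 to 575 FPKM and Slc17a7 at 488 to 555 FPKM, and these neighbours overlapped. Syp, Rab3a and Syt1 came next, and each lay apart from the neighbour below it in every library. From Stx1a (148 to 179 FPKM) to Sv2b (96.1 to 113 FPKM) each gene overlapped the next, so their order is not resolved. The genes at the bottom were Unc13c (3.63 to 4.36 FPKM), Syt2 (2.40 to 3.83 FPKM) and Slc17a6 (2.19 to 2.85 FPKM), which overlapped in a chain. This order is that of transcripts and says nothing of protein amounts.

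**Figure D2:**
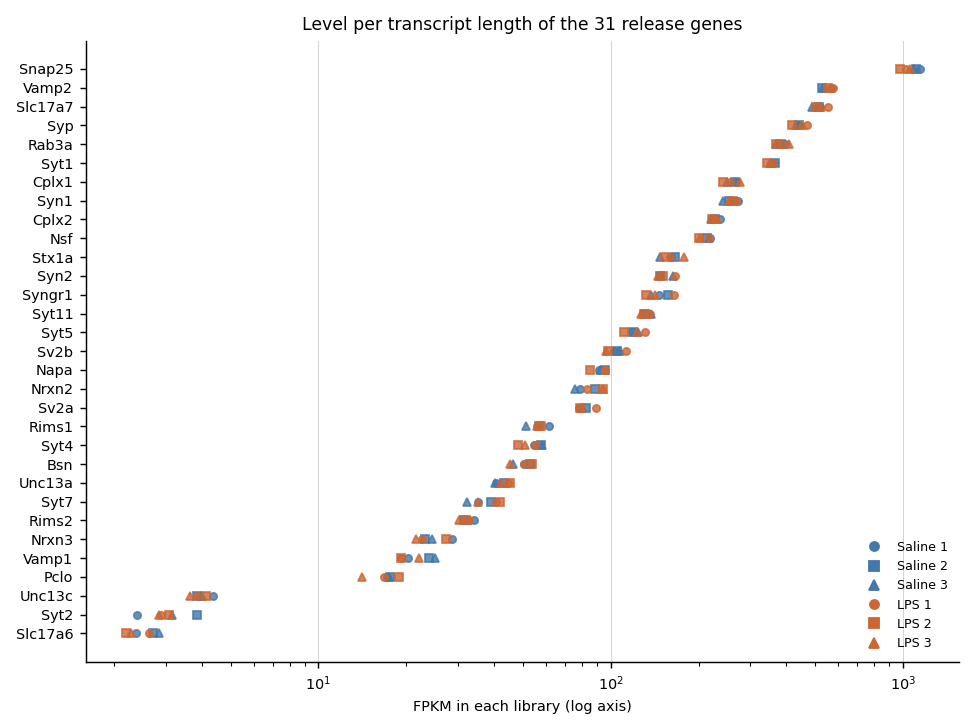
FPKM of each gene in each of the 6 libraries (log axis), ordered by mean level, with saline in blue and LPS in orange. Snap25 lies alone at the top, Unc13c, Syt2 and Slc17a6 lie below 5 FPKM, and the colours are mixed within most genes.

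Of the fusion genes, Snap25 (chr2:136713453-136782428, plus strand) codes for the membrane SNARE that gives 2 of the helices of the fusion complex. It had 2599.8, 2398 and 2354 CPM (counts scaled to library size, here by TMM) in saline and 2197, 2191 and 2340.2 CPM in LPS libraries. Every LPS value lay below every saline value, with LPS 3 and Saline 3 nearest to each other. The log2 change was -0.13 (SE 0.0610, 95% interval -0.27 to 0.01, edgeR adjusted p = 0.717).

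Vamp1 (chr6:125215551-125245964, plus strand) codes for the less abundant neuronal synaptobrevin. It had 63.6, 72.0 and 75.4 CPM in the saline and 57.6, 59.7 and 67.4 CPM in LPS libraries, and the groups overlapped through LPS 3 and Saline 1. The log2 change of -0.19 was the most negative of the list (SE 0.0833, interval -0.378 to -0.004, edgeR adjusted p = 0.696). Vamp2, its abundant relative, had 1407, 1249 and 1254 CPM in the saline and 1359.5, 1361 and 1368 CPM in LPS libraries, with a log2 change at 0.06 (SE 0.0609, edgeR adjusted p = 0.851). The remaining fusion genes code for syntaxin-1A (Stx1a) and for the ATPase NSF and its adaptor alpha-SNAP (Napa), which take spent complexes apart. Their log2 changes ran from -0.06 to 0.05 and their groups overlapped.

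Of the calcium sensors, Syt1 codes for the main fast sensor of forebrain synapses. It had 1928, 1859.7 and 1781 CPM in the saline and 1839.9, 1833 and 1843 CPM in LPS libraries, and the LPS values lay inside the saline range. Its log2 change was -0.01 with an interval of -0.13 to 0.11 (edgeR adjusted p = 0.974).

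Syt4 (chr18:31437808-31447406, minus strand) codes for a synaptotagmin whose transcript is induced by neuronal activity. It had 238, 242 and 244 CPM in the saline and 230.1, 210.4 and 217 CPM in LPS libraries. The groups did not overlap, and Syt4 had the smallest p of the list, yet the difference was small. The log2 change was -0.14 (SE 0.0549, interval -0.26 to -0.01), a level of 0.909 times that of saline, and it did not pass (edgeR adjusted p = 0.658). In FPKM the groups of Syt4 overlapped, with LPS 1 at 55.0 and Saline 1 at 54.5.

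Syt2 (chr1:134646677-134762593, plus strand), the fast sensor gene of inhibitory fast-spiking cells and of hindbrain synapses, was the one member whose counts were erratic. It had 7.62, 22.2 and 8.94 CPM in the saline and 16.6, 17.9 and 18.8 CPM in LPS libraries. Saline 2 lay above the LPS group, and Saline 1 and Saline 3 lay below it. The log2 change was 0.46 with an interval of -0.779 to 1.697 (SE 0.467, edgeR adjusted p = 0.880). Without Saline 2 it was 1.1 (edgeR adjusted p = 0.00698), so the absence of a call rests on that library. The authors' FPKM were 2.40, 3.83 and 3.15 in saline and 2.88, 3.07 and 2.85 in LPS libraries, with a log2 change at -0.05 (limma adjusted p = 0.971). There Saline 2 was still above and Saline 1 still below the LPS group, while Saline 3, at 3.15, lay above it too.

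Pvalb, a marker of fast-spiking interneurons, had 12.1 to 19.8 CPM in the saline and 14.1 to 16.7 CPM in LPS libraries (log2 change -0.03, edgeR adjusted p = 0.984). The 7 genes listed as markers of these cells were Pvalb, Kcnc1, Kcnc2, Erbb4, Tac1, Gad1 and Gad2. Their summed level, of which Pvalb made a small part, was 621 to 657 CPM in the saline and 655 to 713 CPM in LPS libraries. Of the 7, 0 were called and none was at 0. An unadjusted edgeR p under 0.05 was found in 2 of the 7, where 7.17% of all rows passed that mark. The part of these cells in the values of Syt2 and Vamp1, which they express, was not tested.

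The other sensors were close to level. Syt5 (log2 change 0.06), Syt7 (-0.10), which codes for a high-affinity sensor of slow release and facilitation, and Syt11 (-0.01), whose product does not bind calcium, did not pass. The complexin genes Cplx1 and Cplx2 had log2 changes of -0.01 and -0.00, with intervals of -0.16 to 0.14 and -0.13 to 0.13.

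**Figure D3:**
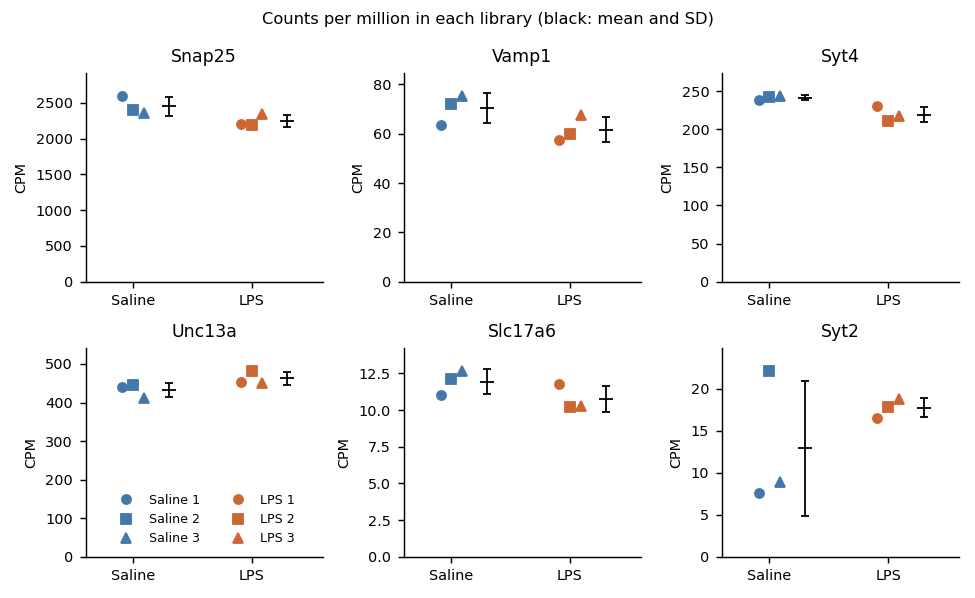
CPM of 6 genes in each library (axes start at 0), with the group mean and SD in black. Snap25 and Syt4 are lower and Unc13a is higher in each LPS library by a small margin, Vamp1 and Slc17a6 overlap, and the saline values of Syt2 run from 7.62 to 22.2 CPM.

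All 7 genes of the vesicle surface had log2 changes within 0.1 of 0, from -0.04 to 0.04, and 0 passed. Of all 31 members 25 lay within 0.1 of 0, as did 56.4% of all rows. Syp codes for synaptophysin, a classic marker of vesicles, and had 1266, 1227 and 1198 CPM in the saline and 1307, 1216 and 1281 CPM in LPS libraries. Its log2 change was 0.04 (interval -0.08 to 0.17, edgeR adjusted p = 0.896). Sv2a, whose product is the binding site of the drug levetiracetam, had 380.1, 384 and 372 CPM in the saline and 415, 382 and 374 CPM in LPS libraries, and the groups overlapped. Syn1 and Syn2, which code for the synapsins that tether the reserve pool, had log2 changes of 0.04 and 0.02. Rab3a (0.03), a vesicle GTPase gene, Syngr1 (0.00) and Sv2b (-0.04) were similar. Exons of Syn1, Syn2 and Rab3a share 9, 90 and 29 bases with a tested gene on the opposite strand, and the labels do not state that strand was kept.

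The vesicular glutamate transporters mark excitatory neurons of different regions. Slc17a7 (VGLUT1), the cortical form, had 1705, 1620.3 and 1521 CPM in the saline and 1735, 1653 and 1669 CPM in LPS libraries (log2 change 0.06, interval -0.07 to 0.20, edgeR adjusted p = 0.859). Slc17a6 (VGLUT2), the form of thalamus and brainstem, had 11, 12.1 and 12.7 CPM in the saline and 11.8, 10.2 and 10.3 CPM in LPS libraries. The groups overlapped through LPS 1, and the log2 change was -0.15 (interval -0.39 to 0.09, edgeR adjusted p = 0.803). By FPKM, Slc17a7 was on average 207 times as abundant as Slc17a6.

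Thalamic markers, of cells that express Slc17a6, were low but present. Tcf7l2 had 4.49 to 5.68 CPM in the saline and 3.98 to 6.68 CPM in LPS libraries, and Prkcd 8.60 to 9.19 and 8.15 to 10.1 CPM. The 8 thalamic markers found summed to 111 to 126 CPM in the saline and 103 to 123 CPM in LPS libraries, with 0 called. Tcf7l2 and Prkcd made a small part of this sum, so it may not measure thalamic cells alone. The part of such cells in the values of Slc17a6 was not tested.

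At the active zone, Unc13a (chr8:71624417-71671757, minus strand) codes for Munc13-1, which primes vesicles by opening syntaxin. It had 439, 445 and 411 CPM in the saline and 454, 483 and 451 CPM in LPS libraries. Each LPS value lay above each saline value, with LPS 3 at 451 and Saline 2 at 445 CPM nearest to each other. The log2 change was 0.10 (SE 0.0567, interval -0.03 to 0.23, edgeR adjusted p = 0.770). In FPKM the groups of Unc13a overlapped, with LPS 3 at 42.3 and Saline 2 at 43.2. Its exons share 495 bases with Colgalt1 on the opposite strand, and Colgalt1 had a log2 change at 0.06 (edgeR adjusted p = 0.886).

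Unc13c, a relative best known from cerebellar granule cells, had 43.1, 36.4 and 37.5 CPM in the saline and 36.3, 40.5 and 34.9 CPM in LPS libraries (log2 change -0.07, edgeR adjusted p = 0.905). Rims1, which codes for the scaffold that recruits calcium channels and was the most abundant active zone member by FPKM, had 353, 316 and 285 CPM in the saline and 318, 332 and 318 CPM in LPS libraries (log2 change 0.02, edgeR adjusted p = 0.974). In both genes the groups overlapped.

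Bsn and Pclo code for the giant scaffolds bassoon and piccolo. Bsn had 894, 904 and 783 CPM in the saline and 859, 952 and 776 CPM in LPS libraries (log2 change 0.00, interval -0.19 to 0.20). Pclo had 312, 311 and 292 CPM in the saline and 286, 340.0 and 240.2 CPM in LPS libraries (log2 change -0.08, interval -0.36 to 0.20). In both, LPS 2 was the highest and LPS 3 the lowest library of all 6, so the LPS mice differed more from each other than the groups did. Rims2 had a log2 change at -0.04.

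Of the neurexins, Nrxn2 had 425, 471 and 390.0 CPM in the saline and 437, 463 and 453 CPM in LPS libraries (log2 change 0.07, edgeR adjusted p = 0.862). Nrxn3 had 202, 171 and 174 CPM in the saline and 172, 207 and 165 CPM in LPS libraries (log2 change -0.01, edgeR adjusted p = 0.994). The groups overlapped in both.

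The spread within groups was small for most members and followed transcript length in a pair of LPS libraries. The median SD within groups was 0.076 on the log2 scale of CPM. Over all rows it was 0.116, where 0.5 was added to each CPM before the log. The widest after Syt2 (0.593) were Pclo (0.181), Nrxn3 (0.155) and Bsn (0.133), with exon lengths of 22.46, 12.61 and 15.94 kb in GENCODE M21, where the median member had 6.79 kb. Across the 31 genes, the deviation of LPS 2 from each gene's mean was greater at greater log10 exon length (Pearson r = 0.52, Spearman rho = 0.51), and that of LPS 3 went the other way (r = -0.47, rho = -0.54). Over 13559 annotated rows, with 0.5 added to each CPM, rho was 0.19 in LPS 2 and -0.20 in LPS 3. In the other 4 libraries the members' rho lay between -0.17 and 0.27. Each gene's mean was taken over all 6 libraries, so a positive deviation in 1 library favours negative ones in the others. The genes of a library share its RNA and preparation, so these are descriptions across genes, and the part of RNA quality or library preparation in them was not tested.

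**Figure D4:**
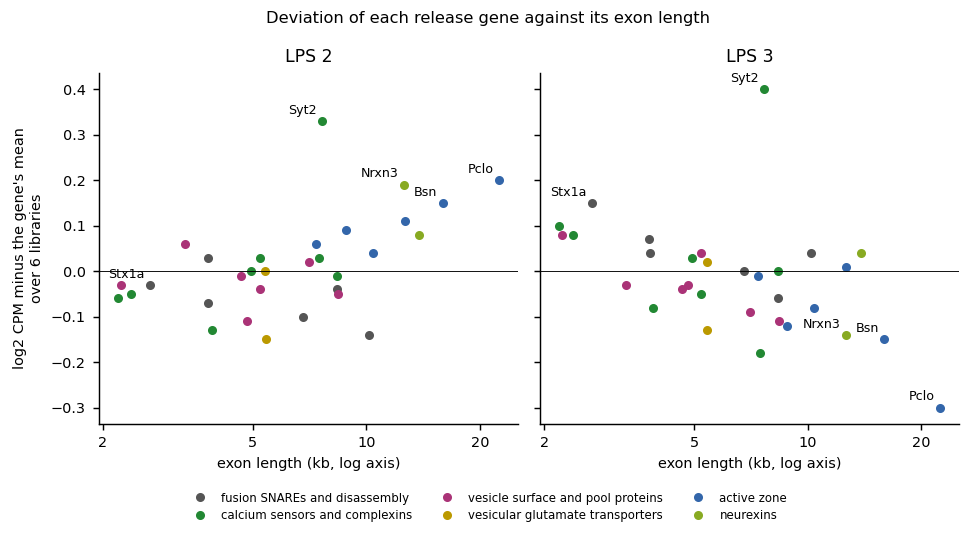
Deviation of each gene's log2 CPM from its mean over 6 libraries, against its exon length (log axis), in LPS 2 and LPS 3, coloured by role. The long genes Pclo and Bsn lie above 0 in LPS 2 and below 0 in LPS 3. Nrxn2 and Unc13a, also long, lie above 0 in both, as does Syt2. Vamp1 lies below 0 in LPS 2 and above 0 in LPS 3.

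Ratios of related genes within a library do not depend on how libraries are scaled, and 10 pairs were compared. They were tested with an exact two-sided permutation test, for which 3 against 3 mice allow no p under 0.10, so none could pass 0.05. Sv2a/Sv2b was the one pair whose groups did not overlap, with log2 ratios of CPM of -0.70, -0.65 and -0.72 in saline and -0.65, -0.61 and -0.58 in LPS libraries. The difference was 0.08 (SE 0.0275, exact permutation p = 0.10, adjusted over the 10 pairs 0.50), and LPS 1 and Saline 2 were equal to 2 decimals. The log2 ratio Slc17a7/Slc17a6 was 7.08 ± 0.183 in saline and 7.30 ± 0.0783 in LPS libraries (SD, n = 3 each, exact permutation p = 0.200), and Vamp1/Vamp2 was -4.21 ± 0.222 and -4.47 ± 0.114 (SD, n = 3 each, exact permutation p = 0.200). Unc13a/Unc13c was 3.47 ± 0.131 and 3.64 ± 0.0580 (SD, n = 3 each, exact permutation p = 0.200). The adjusted p of these 3 pairs was 0.50 by the exact test. The remaining pairs, Syn1/Syn2, Rims1/Rims2, Nrxn2/Nrxn3, Cplx1/Cplx2, Syt1/Syt2 and Bsn/Pclo, had exact permutation p from 0.300 to 0.800. By FPKM, Vamp2 exceeded Vamp1 25.8 times, Unc13a exceeded Unc13c 10.8 times, and Cplx1 and Cplx2 were nearly even at a ratio of 1.14.

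The authors' FPKM and counts did not tell the same story for 4 members. For each gene the FPKM per count in a library was set relative to the gene's mean and the library's median. The highest library exceeded the lowest by over 1.1 times in Syt2 (2.28), Syt7 (1.31), Nrxn2 (1.13) and Nrxn3 (1.13), or 12.9% of the list, against 25.8% of 14223 rows. These genes have 3, 9, 9 and 5 protein-coding transcripts in GENCODE M21. In Syt2 the relative value was 1.45 in Saline 1 and 1.54 in Saline 3, the libraries with few counts, and 0.68 to 0.78 in the others.

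In Syt7 this ratio separated the groups, at 0.97, 0.91 and 0.86 in saline and 1.07, 1.13 and 1.07 in LPS libraries. Groups failed to overlap in this ratio in 10.2% of all rows and in 9.90% of those past the 1.1 mark, and the exact permutation p of Syt7 was 0.10, the smallest possible for 3 against 3 mice. The log2 change of Syt7 was -0.10 in counts and 0.14 in FPKM, with neither past the threshold (limma adjusted p = 0.844 for FPKM). How the authors' FPKM took transcript forms into account is not given in the sources used here, and the reason for the difference was not tested.

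**Figure D5:**
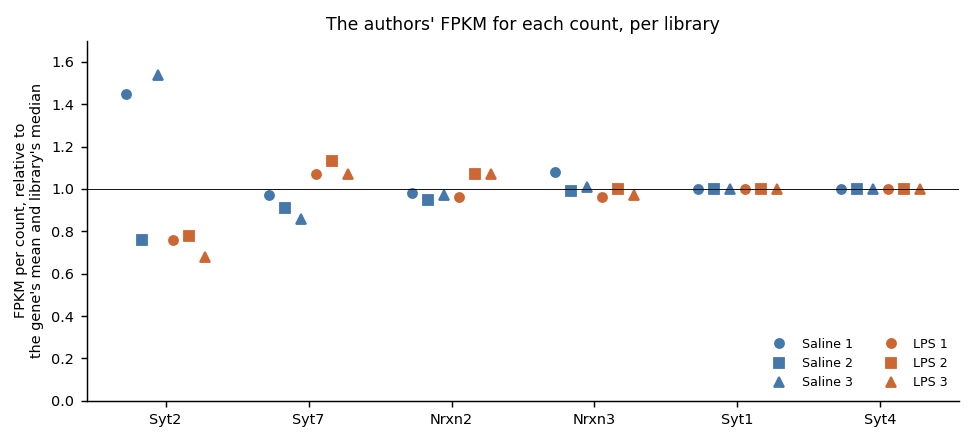
FPKM per count in each library, relative to the gene's mean and the library's median (1 means no departure), for the 4 departing genes and for Syt1 and Syt4. Saline 1 and Saline 3 lie near 1.5 in Syt2, and in Syt7 the LPS libraries lie above and the saline libraries below 1.

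Around these members, 134 further genes of the release pathway were read in 7 lists chosen for their function. EdgeR called 0 higher and 1 lower, where 0.0982% and 0.189% of all rows were called in those directions. The called gene was Cbln2, which codes for a secreted partner that bridges neurexins to receptors across the cleft. It had 35.1 ± 5.67 CPM in the saline and 19.7 ± 1.55 CPM in LPS libraries (SD, n = 3 each), with a log2 change at -0.83 (SE 0.123, edgeR adjusted p = 0.0355). The call held with DESeq2 (adjusted p = 2.29e-07), with RLE size factors (edgeR adjusted p = 0.0369), with quantile scaling (limma adjusted p = 0.0405) and without Saline 3 (log2 change -0.96, edgeR adjusted p = 0.00308). It was lost without any other single library (log2 change -0.88 to -0.74, edgeR adjusted p 0.0767 to 0.158) and with the replicate block (-0.82, edgeR adjusted p = 0.0962). It was also lost with limma-voom (-0.82, adjusted p = 0.109) and in the FPKM values (-0.69, limma adjusted p = 0.104). Its relative Cbln4 had a log2 change at -0.60 (SE 0.146, edgeR adjusted p = 0.280).

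Counts of the other lists were all 0 by edgeR: 0 of 27 further fusion factors and sensors, 0 of 17 vesicle proteins, 0 of 23 active zone and release site proteins, 0 of 23 endocytosis proteins, 0 of 15 proton pump subunits and 0 of 13 dense-core vesicle proteins. Their medians ran from -0.05 to 0.01 on the log2 scale. At an unadjusted edgeR p under 0.05 there were 3, 2, 0, 0, 0 and 1 genes, where 7.17% of all rows passed that mark. Syt6 had the largest change, from 7.83 ± 1.64 to 18.6 ± 5.27 CPM (SD, n = 3 each, log2 change 1.253, SE 0.245). EdgeR did not call it (adjusted p = 0.229), DESeq2 did (adjusted p = 7.11e-07), and in FPKM the log2 change was 0.34 (limma adjusted p = 0.799). Sv2c, a vesicle protein gene related to Sv2a, had 15.2 ± 0.874 and 19.6 ± 0.591 CPM (SD, n = 3 each, log2 change 0.37, edgeR adjusted p = 0.224). Rab3b, a relative of Rab3a, had a log2 change at 0.25 and did not pass (edgeR adjusted p = 0.557).

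The genes of smallest p in the other lists did not pass. These were Ppfia4 (0.14) and Rims3 (-0.22) for the active zone, Cltc (-0.12) and Ap2b1 (0.09) for endocytosis, Atp6v0b (0.11) and Atp6v0a1 (0.46) for the proton pump, and Chgb (-0.18) and Ptprn (0.14) for dense-core vesicles, as log2 changes with edgeR adjusted p of 0.457 and above. In Atp6v0a1 the value rests on LPS 3, at 656 CPM where the other libraries had 323 to 370.3 CPM, and without it the log2 change was 0.11. Chgb codes for chromogranin B, a core protein of peptide vesicles. Groups did not overlap in Ppfia4, Cltc, Atp6v0b, Atp6v0a1 and Chgb, and over the 134 genes they did not overlap in 11.2%, beside 13.7% of all rows.

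No gene of the cell type marker lists was called. At an unadjusted edgeR p under 0.05 there were 2 of 8 all-neuron, 2 of 7 fast-spiking, 1 of 8 thalamic and 1 of 8 striatal markers, and 0 in the other 5 lists, where 7.17% of all rows passed that mark. The part of neuron content in the members' values was not tested. Neurod6, a marker of cortical excitatory neurons, had 104 to 130 CPM in the saline and 118 to 128 CPM in LPS libraries, and Rbfox3 (NeuN) 250 to 307 and 260.2 to 293 CPM. Summed levels of the all-neuron list were 2833 to 3237 CPM in the saline and 2743 to 2919 CPM in LPS libraries, and those of the cortical excitatory list 4583 to 5141 and 4587 to 5036 CPM. None of the 9 lists held a gene at 0. The astrocyte list was at 2978 to 5449 CPM in the saline and 2835 to 5915 CPM in LPS libraries, a spread that did not follow the groups.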

How the data were processed

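RNA-seq libraries of ACC from 3 LPS and 3 saline mice were read from 1 table. The authors deposited raw counts per gene and, beside them, FPKM values. The build GRCm38 and the tools DESeq 1.10.1 and TopHat2 2.1 are listed per the submitters' processing notes. What each did, which programs gave counts and FPKM, and which annotation was used was not given in the sources used here. Positions came from GENCODE M21 (GRCm38), which held 13559 of the 13562 Ensembl identifiers.

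The test of counts was edgeR 4.0.16's quasi-likelihood test (robust, TMM factors, filterByExpr, which removed 0 of 14250 rows) run in R 4.3.3 on treatment alone. P-values were two-sided and Benjamini-Hochberg adjusted over all rows, with a threshold of 0.05. Each SE of an edgeR log2 change is that change, without its sign, divided by the root of the F statistic. The SE of a difference in ratios of related genes comes from the variances of both groups. CPM is relative to the TMM-scaled library. FPKM was tested as log2(FPKM + 1), at a mean of at least 0.5, with limma 3.58.1, and its changes are on that scale, which understates those of low genes. DESeq2 1.42.0, limma-voom, RLE and quantile scaling, other filters, the replicate number as a block and leaving out each library were alternatives. The steps were tested on simulated counts. Libraries were not near-duplicates (chi-square per degree of freedom at least 32.1).

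Members and lists were chosen with earlier results of these data known. The genes named were all members, called genes and the 2 of smallest p of each further list. One gene under this rule is not reported here. Synj1, Cacna2d1, Nlgn1 and Syt17 were chosen after their values were seen, as were the promoter motifs.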

Additional observations from a re-analysis of the deposited data

How the results depend on the processing

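Of 434 values (31 members under 14 alternatives), 1 passed the threshold: Syt2 without Saline 2 (1.1, edgeR adjusted p = 0.00698). In 35 of the 434 the sign differed from that reported, in 19 genes, and the differences beyond 1 SE were Syt2 (-0.05) and Syt7 (0.14) with FPKM, as was the Syt1/Syt2 ratio (0.04). Genes called over all rows were 60 higher and 80 lower with DESeq2, 8 higher with FPKM and 23 higher at a threshold of 0.1. Of the 134 further genes, DESeq2 called 1 higher, and limma-voom, FPKM and the replicate block called 0 lower. Members whose groups did not overlap were 1 lower with quantile scaling, and 0 higher and 1 lower (Snap25) with FPKM, where Syt4 and Unc13a overlapped. For these differences, other than the looser threshold, the cause was not tested. Each library left out in turn left 14 to 20 genes higher and 22 to 35 lower, 0 to 1 members higher and 0 to 0 lower, 0 to 1 further genes higher (Synj1 without Saline 2) and 0 to 1 lower. It gave 1 to 5 members not overlapping higher (most without Saline 1) and 2 to 5 lower (most without LPS 1), which fewer samples raise by construction, and a member median of -0.040 (without Saline 3) to 0.033 (without Saline 1). The share of all rows without overlap at these alternative settings is not given here, so these counts describe the list only. Same-numbered libraries showed no sign of pairing (correlations -0.022, -0.001 and 0.037), which cannot show that the mice were unpaired. With the replicate block 31 genes were called over all rows and 0 members. With 3 mice per group, the whole edgeR interval lay within 1.2-fold in either direction in 24 of the 31 members. Changes inside a member's interval could have gone unseen.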

Other observations

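Several genes of the release pathway had counts that differed widely between libraries of the same group. Of the 165 genes read here, 12 had a highest library over 1.5 times the lowest within a group, 1 of 31 members (3.23%) and 11 of 134 further genes (8.21%), against 18.3% of all rows. Synj1, which codes for the phosphatase that uncoats endocytosed vesicles, had 194, 365 and 185 CPM in saline and 373, 357 and 329 CPM in LPS libraries, low in Saline 1 and Saline 3 as Syt2 was. Without Saline 2, edgeR called both higher in LPS (Synj1 log2 change 0.90, adjusted p = 0.00104, and Syt2 1.1, adjusted p = 0.00698), although neither was called with all 6 libraries. Over all rows, 20 genes were called higher and 23 lower in that setting. Synj1 was chosen after its values were seen. Saline 2 was the highest saline library of both genes, so leaving it out favours such calls.

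Other genes split the libraries differently. Syt6 differed 1.66 times within a group, and its LPS values (14.8 to 24.7 CPM) all lay above its saline values (5.97 to 9.04 CPM). In FPKM the groups of Syt6 overlapped, at 2.62 to 3.42 in saline and 3.34 to 5.43 in LPS libraries. Its FPKM per count differed 1.99 times. Cacna2d1, an auxiliary calcium channel subunit gene, was low in Saline 3 and LPS 1 (96.4 and 88.3 CPM) and at 200.2 to 250.4 CPM in the other 4. Nlgn1, a neurexin ligand gene, was low in Saline 2 and LPS 1 (51.0 and 46.5 CPM) and at 75.2 to 79.7 CPM elsewhere. Atp6v0a1, a proton pump subunit gene, stood apart in LPS 3 alone, though each of its LPS values lay above each saline value. Syt17 stood at 82.3 CPM in Saline 1 and 45.0 to 51.0 CPM elsewhere. Among the 12 genes, FPKM per count differed by over 1.1 times between libraries in 6 (50.0%), and in 25 of the other 153 (16.3%). It did so in 25.8% of all rows. The 12 were picked by their spread in counts, which enter this ratio, so the choice favours a higher share among them. In Cacna2d1 FPKM per count differed 1.81 times, so that FPKM ran from 20.3 to 32.9 where counts differed more. In Atp6v0a1 and Syt17 it differed 1.02 and 1.03 times, and FPKM showed the same library apart as counts did.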
